A study of Mus musculus with 18 samples.

Results

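This report describes the matrix metalloproteases (Mmp genes), the Adamts proteases with their Adamtsl relatives, and the tissue inhibitors of metalloproteases (Timp genes) in control and MUNC-overexpressing C2C12 cells. Members were chosen by symbol alone, and 51 of the 35275 genes in the deposited table matched, namely 23 Mmp, 19 Adamts, 5 Adamtsl and 4 Timp genes. Of these, 29 reached 0.5 FPM in at least 3 of the 18 libraries and were tested, namely 11 Mmp, 11 Adamts, 4 Adamtsl and 3 Timp genes. FPM is the deposited unit, reads of a gene scaled for the size of the library and not for the length of the gene.

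Matrix metalloproteases are zinc-dependent enzymes that cut collagens, fibronectin, laminin and other proteins around the cell, and most are made as inactive proenzymes. Adamts enzymes are secreted relatives that carry thrombospondin repeats and cut proteoglycans or trim procollagens, and Adamtsl proteins keep the repeats without the protease domain. Timps bind the active site of these enzymes, and the balance of proteases and Timps sets how myoblasts migrate, align and fuse within their matrix.

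C2C12 is a mouse myoblast line that is induced to form myotubes by lowering the serum, and the stock used is described as PAX7 negative in the labels. MUNC is a noncoding RNA whose gene lies just before that of Myod1. The study compared a control line labelled wild-type with a line overexpressing the spliced form (MUNC spliced) and a line overexpressing the genomic form (MUNC genomic). Each line was sampled at about 80% confluency in growth medium with 20% fetal serum (GM) and after 3 days in differentiation medium with 2% horse serum (DM3), with 3 biological replicates in each of the 6 groups. The labels do not say how the RNA was overexpressed, whether the control carried an empty vector or whether a line was 1 clone, and no gene of the table carries a name of MUNC, so overexpression was not checked here. Groups were taken from the titles, since another label calls cells myoblasts or myotubes, and it went against the medium in the title for 9 of the 18 samples.

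Recovered depth was 38416702 to 68788327 reads per library, and 3 reads, the upper limit that a count of 0 allows, came to at most 0.0757 FPM. That limit covers counting error only. All 8 myoblast markers passed the filter, while the satellite cell markers Pax7, Pax3 and Calcr averaged under 0.5 FPM in every group. Control cells barely expressed Myod1, at 0 to 0.0854 FPM in GM and 0 to 0.221 FPM in DM3, and the 7 myotube markers in the table summed to 10.9 to 21.9 FPM in control DM3 against 163 to 872 FPM in MUNC spliced DM3 and 56.0 to 101 FPM in MUNC genomic DM3. The control sum in GM was 12.5 to 31.6 FPM, so by this sum the control line after 3 days in DM3 was not marked as myotubes. Single markers moved both ways in control. Acta1 held 11.2 to 31.0 FPM in GM and 3.43 to 5.68 FPM in DM3. Tnnt3 held 0.138 to 0.495 and 1.69 to 8.40 FPM, and Atp2a1 0.123 to 0.425 and 2.84 to 9.23 FPM. Myog reached at most 0.434 FPM. MUNC spliced DM3 replicate 1, which held the 872 FPM, stood apart from its group. Summed fibroblast markers were higher in every DM3 group than in GM, at 138 to 262 against 11.5 to 36.6 FPM in control, mostly from Dcn, with Thy1 and Tcf21 under 0.5 FPM on average in all groups. The MUNC genomic line also stood apart in markers of other cell types. Of 4 epithelial markers 1 passed the filter, Krt8, and their sum was 8.15 to 15.3 FPM in MUNC genomic GM and 9.37 to 14.5 FPM in MUNC genomic DM3, against 0.126 to 0.749 FPM in the other groups. Of 4 endothelial markers 2 passed, and their sum was 7.14 to 7.62 FPM in MUNC genomic GM and 4.01 to 5.28 FPM in MUNC genomic DM3, mostly from Cdh5, against 0.25 to 1.72 FPM elsewhere. Epcam and Pecam1 were among the markers under 0.5 FPM. Of 5 chondrocyte and tendon markers 3 passed. Their sum was highest in MUNC genomic cells, at 129.7 to 145.4 FPM in GM and 156.4 to 221.1 FPM in DM3. In MUNC spliced cells that sum overlapped control in both media. Tnmd alone set MUNC spliced cells apart, at 2.49 to 8.53 FPM in GM and 15.1 to 35.7 FPM in DM3, against at most 0.257 FPM in the other lines. Des, the muscle intermediate filament desmin, was at 332.5 to 622 FPM in MUNC genomic GM and 820.4 to 1010.0 FPM in DM3, against at most 92.0 FPM in control. In bulk RNA, fewer cells of a type and less RNA per cell cannot be told apart, and the part of these markers in the results was not tested. The same holds for each result below that sets a MUNC line apart.

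A cluster of 10 members lies on chromosome 9, between 7272514 and 7699585 of GRCm38 (mm10), and is shown first because letters shared by most of its promoters were not found in those of the other members. The cluster holds the collagenases Mmp13, Mmp8, Mmp1a and Mmp1b, the stromelysins Mmp3 and Mmp10, the matrilysin Mmp7, the macrophage elastase Mmp12, and Mmp20 and Mmp27. RefSeq gave a promoter for 36 of the 51 members, including all 10 of the cluster. The letters TGANTCA, with C or G at N the consensus bound by the AP-1 factors Fos and Jun, equal their own reverse complement. They occurred in the 250 bases before a RefSeq start of 8 of these 10 genes and of none of the other 26. In Mmp20 the match was TGAATCA. Mmp12 has more than 1 entry, and only the one at 7347124 to 7347373, inside the gene, holds the letters. Of 32851 RefSeq promoters of that length, 6.75% hold TGANTCA. The 250 bases before the start of 3 cluster genes and of Adamts1, which lies on chromosome 16 and is the first Adamts gene of every group by FPM per kilobase, read as follows in the direction of the gene, from RefSeq on GRCm38.p6. Capitals mark TGANTCA and TATAAA and also GGGCGG on either strand.
Mmp13 (chr9:7272264-7272513, plus strand): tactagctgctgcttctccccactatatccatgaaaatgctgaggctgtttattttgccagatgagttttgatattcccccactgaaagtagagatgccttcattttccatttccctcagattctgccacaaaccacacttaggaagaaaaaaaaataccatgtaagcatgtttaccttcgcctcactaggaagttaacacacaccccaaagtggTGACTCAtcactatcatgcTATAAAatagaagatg
Mmp3 (chr9:7445572-7445821, plus strand): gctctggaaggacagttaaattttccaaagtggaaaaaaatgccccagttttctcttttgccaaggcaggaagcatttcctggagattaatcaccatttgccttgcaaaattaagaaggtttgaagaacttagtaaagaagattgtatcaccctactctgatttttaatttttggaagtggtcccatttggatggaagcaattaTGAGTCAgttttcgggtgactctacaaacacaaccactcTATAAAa
Mmp10 (chr9:7502092-7502341, plus strand): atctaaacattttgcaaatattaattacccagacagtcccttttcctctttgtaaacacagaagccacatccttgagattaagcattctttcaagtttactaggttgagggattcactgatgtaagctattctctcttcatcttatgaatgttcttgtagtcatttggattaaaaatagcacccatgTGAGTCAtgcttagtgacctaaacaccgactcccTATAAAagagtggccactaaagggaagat
Adamts1 (chr16:85803114-85803363, minus strand): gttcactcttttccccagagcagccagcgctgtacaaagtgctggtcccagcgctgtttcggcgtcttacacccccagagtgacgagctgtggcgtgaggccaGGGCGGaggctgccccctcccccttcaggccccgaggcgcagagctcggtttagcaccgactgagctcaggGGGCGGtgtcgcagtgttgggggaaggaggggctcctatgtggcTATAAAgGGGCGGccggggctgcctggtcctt
Counted back from the start, the first base of TGANTCA stands at position -35 in Mmp13, -46 in Mmp3 and -63 in Mmp10, each followed by TATAAA at -16, -7 and -29. Adamts1 has TATAAA at -32 and GGGCGG at -147, -76 and -25, and its window is 65.6% G and C against 37.2% to 40.4% in the other 3. TATAAA occurs in 12.4% of all the promoters and in 10 of the 36 members with an entry, and GGGCGG in 32.7% and in 20 members. These matches are a description of letters, and no binding was measured.

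The cluster was almost silent. Of its 10 genes, 4 had no read in any library, and only Mmp13 passed the filter. Over all members, 22 did not pass. Of those, Adamts3, Adamts8, Mmp1b, Mmp7, Mmp20 and Mmp27 had no read anywhere, and 15 had at most 5 reads in every library (these 6 and Adamts13, Adamts15, Adamts19, Adamts20, Mmp1a, Mmp8, Mmp10, Mmp21 and Mmp25). The other 7 were Adamts18, Adamts9, Adamtsl2, Timp4, Mmp12, Mmp24 and Mmp3, with at most 55 reads in any library. That highest count belonged to Mmp3 in MUNC spliced DM3 replicate 2, at 0.958 FPM against 0 and 0.488 FPM in replicates 1 and 3. Expression of these genes was not detectable or too low to test at this depth.

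Levels of different genes were compared per kilobase of exon, with lengths from GENCODE M21. Timps led every group on this scale. Timp2 was first in 5 of the 6 groups, at 137 ± 10.8 FPM per kb in MUNC genomic GM to 290.4 ± 12.8 FPM per kb in MUNC spliced DM3 (SD, n = 3). In control GM, Timp1 came first at 236 ± 94.0 and Timp2 next at 137 ± 20.0 FPM per kb, a gap within the spread of Timp1. Adamts1 and Mmp14 were the leading proteases in control, at 46.7 ± 16.2 and 34.9 ± 2.34 FPM per kb in GM, which overlap within their spread, and 125.9 ± 7.35 and 59.6 ± 5.43 FPM per kb in DM3. In MUNC genomic DM3 Mmp2 led the Mmps, at 52.2 ± 1.19 FPM per kb beside 39.0 ± 3.16 for Mmp14, whereas in MUNC spliced DM3 Mmp2 was not among the 10 highest members.

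**Figure D1:**
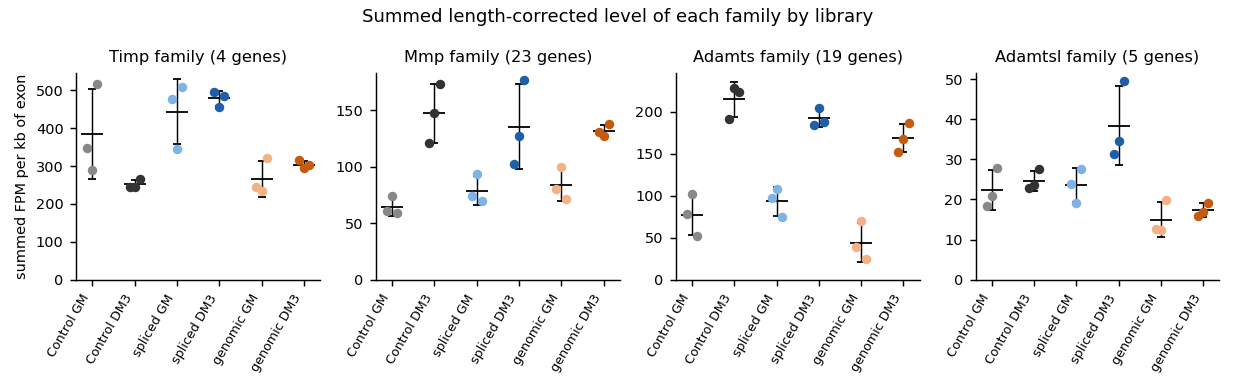
Summed level of each family per library, in FPM per kilobase of exon, for all 51 members. Points are libraries (n = 3 per group), bars are the mean and SD. The Adamts and Mmp sums of every DM3 group lie above those of the same line in GM, and the Timp sum of control DM3 (245.6 to 265) lies below that of control GM (290.4 to 517).

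Summed per kilobase, the 19 Adamts genes stood at 52.4 to 101.5 FPM per kb in control GM and 191 to 229 in control DM3. In MUNC genomic cells the sum went from 24.8 to 69.4 in GM to 152.5 to 186 in DM3, and in MUNC spliced cells from 74.4 to 108 to 184 to 204. The 23 Mmp genes summed to 59.1 to 74.1 FPM per kb in control GM and 121 to 173 in control DM3. The Timp sum moved the other way in control, and in MUNC spliced cells it was 346 to 508 in GM and 457 to 495 in DM3, so those groups overlapped. These sums are descriptions of a few abundant genes, mainly Adamts1 for Adamts, and Mmp14, Mmp11 and Mmp2 for Mmp.

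Differentiation medium raised more members than it lowered in all 3 lines. In control cells 14 of the 29 tested members were higher in DM3 than in GM and 2 were lower, Timp1 and Mmp17. Of all 13869 tested genes, 58.2% were called in that comparison, 29.6% higher and 28.6% lower. In MUNC spliced cells 15 members were higher and 0 lower, where 35.6% of all genes were called, 17.2% higher and 18.4% lower. By limma at an unadjusted p under 0.05, 1 member was lower there, Timp1, and edgeR and DESeq2 each called 0 lower. In MUNC genomic cells 17 were higher and 2 lower, Timp1 and Timp3, where 51.4% were called, 26.3% higher and 25.1% lower. A call is a Benjamini-Hochberg adjusted p under 0.05 in limma's test on log2(FPM + 1) over all tested genes. The median log2 change of the tested members was 0.69 in control, 0.59 in MUNC spliced and 0.74 in MUNC genomic cells, beside 0.02, -0.01 and 0.02 for all tested genes. GM and DM3 libraries did not overlap for 20, 16 and 20 of the members, beside 62.4%, 44.6% and 62.8% of all genes. The share of members called at all, 55.2% in control, was near the share of all genes. Since members that pass the filter through 1 medium alone had to differ, these counts are given as descriptions.

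Of the tested members, 7 were called higher in all 3 lines: Adamts1, Adamts4, Adamts5, Adamts7, Adamts12, Mmp19 and Mmp23. These comparisons share no library, but they share 1 estimate of the spread. Libraries of equal replicate number also tended to deviate together (median correlation 0.291, beside -0.124 for other pairs), so the 3 lines are not independent. A further 9 were called higher in exactly 2 lines and 7 in exactly 1, and Adamts10, Adamtsl1 and Adamtsl5 were called in none. Of all tested genes, 9.42% were called higher in all 3 lines, 14.4% in exactly 2 and 16.1% in exactly 1, and 25.4% were called in none. Mmp23 passed the filter without control GM or MUNC genomic GM. When 1 library was left out in turn, 2 of the 16 calls in control were lost in at least 1 fit, 8 of 15 in MUNC spliced and 4 of 19 in MUNC genomic cells. Adamts4 and Mmp19 kept their calls in all 3 lines in every such fit, and the other 5 of the 7 did not. Adamts12 was lost in control without control GM replicate 3 (0.51) and in MUNC genomic cells without MUNC genomic GM replicate 3 (0.48). The Adamts7 rise in MUNC spliced cells (0.83) was lost without MUNC spliced GM replicate 1 or 3 or MUNC spliced DM3 replicate 2 or 3 (0.61 to 0.88). Without MUNC spliced GM replicate 3 the count there was 9, and without MUNC spliced DM3 replicate 1, the library with the highest myotube genes, it was 13.

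**Figure D2:**
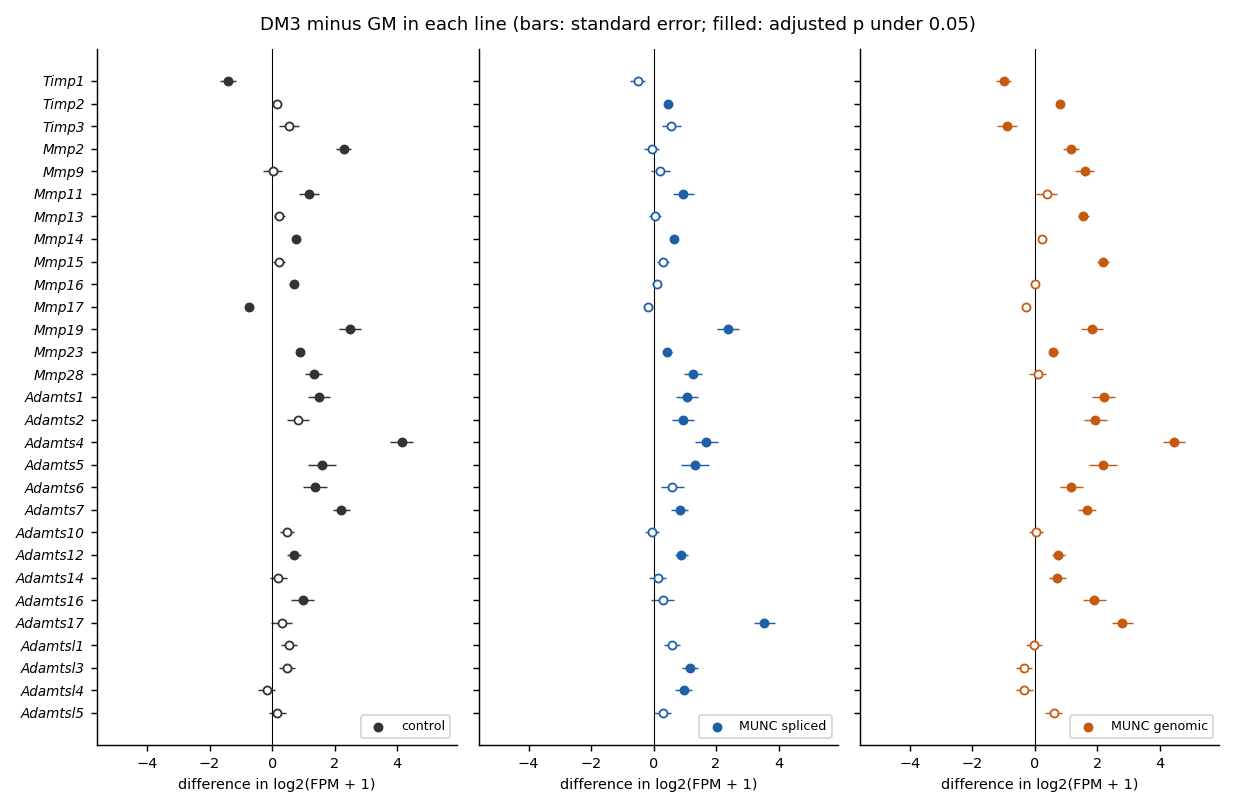
Difference in log2(FPM + 1) between DM3 and GM for the 29 tested members in control, MUNC spliced and MUNC genomic cells, with the standard error as bars. Filled points are called. Adamts4 has the largest difference in control (4.15) and MUNC genomic cells (4.45), and Timp1 lies below 0 in all 3 panels.

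The Timps did not move together. Timp1, a secreted inhibitor of most Mmps, fell in control cells from 179, 145 and 304 FPM in the 3 GM libraries to 67.9, 71 and 85 FPM in DM3, with no overlap. Its change was -1.41 ± 0.24 (limma adjusted p = 0.000114). In MUNC genomic cells it went from 79.4, 84.3 and 130.1 to 51.6, 44 and 47.2 FPM, a change of -0.99 ± 0.24 (limma adjusted p = 0.00265). MUNC spliced cells held 156, 127 and 216 FPM in GM and 127, 112 and 104 FPM in DM3, groups that did not differ past the threshold and met at 127 FPM. Between lines in GM, MUNC genomic cells had less Timp1 than control (log2 difference -1.05 ± 0.24, limma adjusted p = 0.00373). In DM3 they also had less (-0.63, limma adjusted p = 0.0454), a call that was lost when any 1 of the 6 libraries was left out (-0.70 to -0.54) and under edgeR. MUNC spliced and MUNC genomic DM3 libraries differed by 1.24 ± 0.24 (limma adjusted p = 0.000515).

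Timp2, which inhibits Mmps and also takes part in the activation of pro-Mmp2 on the cell surface, was the leading member per kilobase in every group but control GM. Control cells held 528, 459 and 615 FPM in GM and 589, 583 and 598 FPM in DM3, which overlapped. MUNC genomic cells overlapped control in GM, at 527, 498 and 581 FPM, and reached 954, 913 and 945 FPM in DM3. That rise was 0.81 ± 0.13 (limma adjusted p = 9.97e-05). MUNC spliced cells were high in both media, at 1004, 689 and 822 FPM in GM and 1185, 1086 and 1124 FPM in DM3. They exceeded control, by log2 differences of 0.64 in GM and 0.94 in DM3 (limma adjusted p = 0.00131 and 3.01e-05), with no overlap in either medium. The rise within MUNC spliced cells (0.45, limma adjusted p = 0.0145) was lost without MUNC spliced GM replicate 2 (0.32).

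Timp3, the Timp that stays bound to the matrix and also inhibits Adamts4 and Adamts5, was highest in MUNC spliced cells. They held 355, 211 and 436 FPM in GM and 388, 424 and 651 FPM in DM3, where control held 82, 71.9 and 138 and 146, 131 and 130.3 FPM. All MUNC spliced libraries lay above all control libraries. The differences were 1.77 ± 0.31 (limma adjusted p = 0.000384) in GM and 1.80 ± 0.31 (limma adjusted p = 0.000213) in DM3. MUNC genomic cells were the only line in which Timp3 was called lower on differentiation, from 157, 99.6 and 210.4 to 101, 81.6 and 60.6 FPM, groups that overlapped. That call (-0.90, limma adjusted p = 0.0228) was lost without MUNC genomic GM replicate 1 or 3 or MUNC genomic DM3 replicate 3 (-0.86 to -0.65). Exons of Syn3 on the opposite strand cover 21.3% of the Timp3 exon bases, and the strand setting of the counting is not given in the sources used here. Syn3 itself averaged 0.0334 to 0.273 FPM. Timp4 was not tested, at 0 to 0.110 FPM in the 9 GM libraries and 0 to 0.211 FPM in the 9 DM3 libraries.

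**Figure D3:**
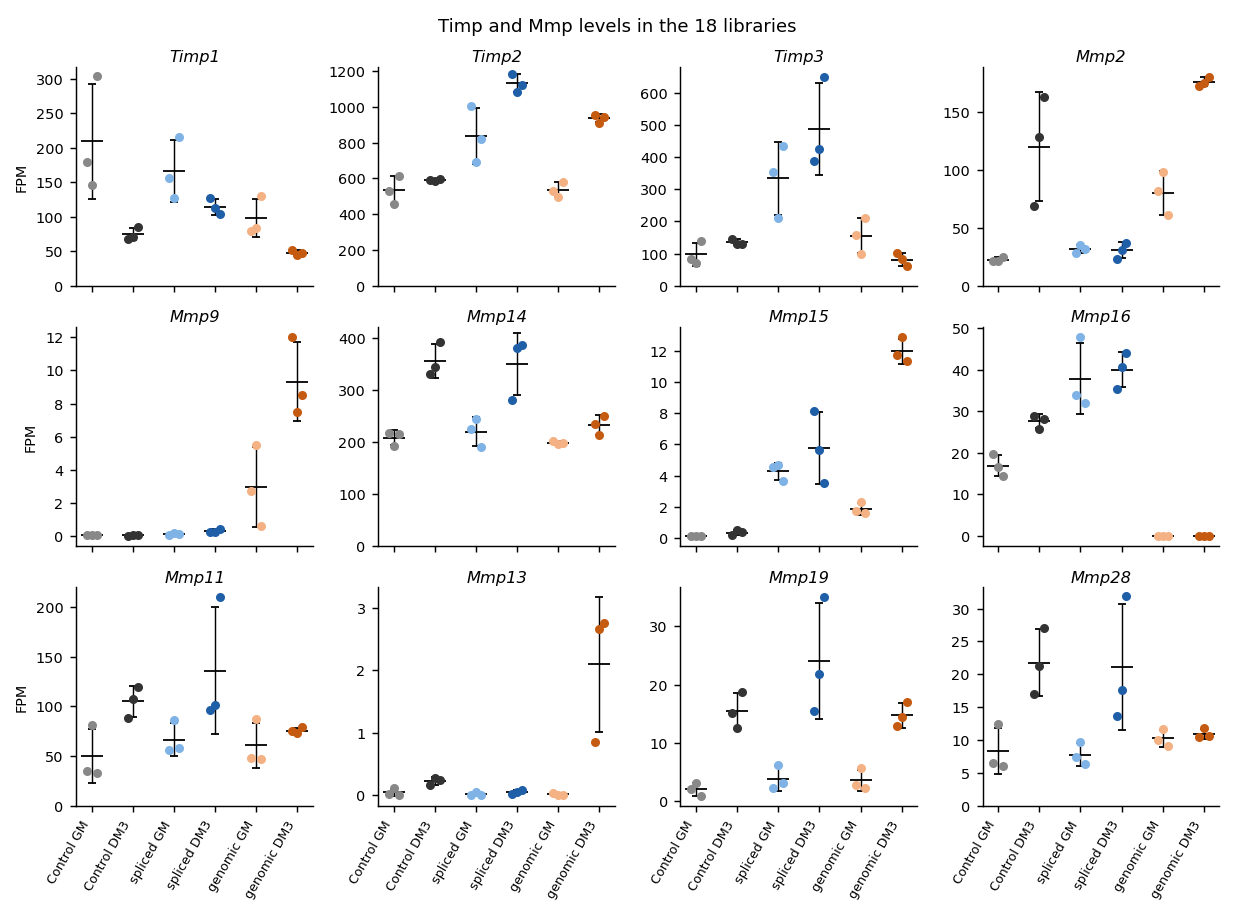
FPM of 3 Timp and 9 Mmp genes in the 18 libraries, on linear axes that differ between panels. Points are libraries in replicate order, bars are the mean and SD of 3. Mmp16 lies at or near 0 in all 6 MUNC genomic libraries, Mmp9 is seen mainly in those libraries, and Mmp2 stays between 23.2 and 37.1 FPM in all 6 MUNC spliced libraries.

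Mmp2, gelatinase A, which cuts type IV collagen and denatured collagens, rose on differentiation in control and MUNC genomic cells and not in MUNC spliced cells. Control libraries went from 21.5, 21 and 24.7 FPM to 68.9, 128 and 162 FPM, a change of 2.29 ± 0.24 (limma adjusted p = 1.49e-06). MUNC genomic libraries went from 81.5, 97.8 and 60.5 to 172, 175 and 180.2 FPM, a change of 1.15 ± 0.24 (limma adjusted p = 0.000928). In neither line did GM and DM3 overlap. MUNC spliced libraries held 27.7, 34.6 and 31.7 FPM in GM and 23.2, 31 and 37.1 FPM in DM3, which overlapped. The test of the difference between the MUNC spliced and the control response gave -2.34 ± 0.34 (limma adjusted p = 0.000757). In DM3 MUNC spliced cells lay below control (log2 difference -1.88 ± 0.24, limma adjusted p = 1.34e-05) and below MUNC genomic cells (log2 difference -2.52 ± 0.24, limma adjusted p = 3.65e-07). In GM, MUNC genomic cells already exceeded control by 1.77 ± 0.24 (limma adjusted p = 4.31e-05). Their excess in DM3 (0.64, limma adjusted p = 0.047) was lost without control DM3 replicate 1 or 2 or MUNC genomic DM3 replicate 1, 2 or 3 (0.28 to 0.73).

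Mmp14, the membrane-type enzyme MT1-MMP that activates pro-Mmp2 with the help of Timp2, was the leading Mmp per kilobase in every group but MUNC genomic DM3. It rose in control from 217, 192 and 214 to 329.9, 344 and 392 FPM and in MUNC spliced cells from 224, 244 and 189 to 279, 379.9 and 386 FPM, without overlap. These changes were 0.77 ± 0.13 (limma adjusted p = 8.48e-05) and 0.66 ± 0.13 (limma adjusted p = 0.000877). In MUNC genomic cells it held 201, 195 and 197 FPM in GM and 235, 212 and 250.0 FPM in DM3. That step did not pass the threshold, and the difference of its response from that of control did not either in the fit without replicate numbers (limma adjusted p = 0.0751). In DM3 MUNC genomic cells were below control (log2 difference -0.61 ± 0.13, limma adjusted p = 0.0011).

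Mmp9, gelatinase B, was found mainly in MUNC genomic cells, the line that also held the most Krt8, Cdh5 and Des. These held 2.72, 5.47 and 0.609 FPM in GM and 12, 7.47 and 8.49 FPM in DM3, a rise of 1.59 ± 0.32 (limma adjusted p = 0.000586). Control held at most 0.0592 FPM, with 3 reads over the 3 GM libraries and 4 over the 3 DM3 libraries. On pooled reads the MUNC genomic level was 176-fold that of control in GM (95% counting interval 60.3 to 854) and 366-fold in DM3 (143 to 1343). MUNC spliced cells held 0.0505, 0.165 and 0.108 FPM in GM and 0.247, 0.209 and 0.416 FPM in DM3, so every MUNC genomic library lay above every library of the other lines. In DM3 every MUNC spliced library also lay above every control library, a difference that limma did not call. Mmp9 passed the filter through MUNC genomic libraries alone, and so had to differ between lines. When every gene was tested without a filter, its MUNC genomic rise had an adjusted p of 0.00235.

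Mmp16, the membrane-type enzyme MT3-MMP, was near 0 in every MUNC genomic library. MUNC genomic libraries held 2 reads in all in GM and 1 in DM3, at most 0.0169 FPM. Control held 19.6, 16.6 and 14.5 FPM in GM and 29, 25.8 and 28.1 FPM in DM3, and MUNC spliced cells 33.8, 47.9 and 32 and 35.5, 40.7 and 44 FPM. On pooled reads the control level was 1491-fold that of MUNC genomic in GM (95% counting interval 413 to 12310) and 4645-fold in DM3 (834 to 183500). MUNC spliced cells exceeded control by 1.11 ± 0.15 (limma adjusted p = 3.24e-05) in GM and 0.52 ± 0.15 (limma adjusted p = 0.0102) in DM3, with no overlap in either medium. Mmp16 (ENSMUSG00000028226) lies on chromosome 4 of GRCm38, from 17852893 to 18119145 on the plus strand. The log2 fit against the near-empty libraries, -4.14 in GM and -4.83 in DM3, depends on the pseudocount and is no bound. Mmp16 passed the filter through control and MUNC spliced libraries alone, so its difference from the MUNC genomic line was built into the set of tested genes and is a description. With no filter the adjusted p was 1.7e-10 in GM and 2.67e-11 in DM3.

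Mmp15, the membrane-type enzyme MT2-MMP, went the other way and was higher in both MUNC lines. Control held 0.154, 0.159 and 0.154 FPM in GM and 0.173, 0.493 and 0.405 FPM in DM3. MUNC spliced cells held 4.52, 4.67 and 3.66 and 8.11, 5.61 and 3.51 FPM, above control by 2.19 ± 0.19 (limma adjusted p = 2.6e-07) in GM and 2.26 ± 0.19 (limma adjusted p = 1.31e-07) in DM3. MUNC genomic cells held 1.73, 2.33 and 1.6 FPM in GM and 11.7, 12.8 and 11.3 FPM in DM3. They exceeded control by 1.31 ± 0.19 (limma adjusted p = 7.8e-05) in GM and 3.26 ± 0.19 (limma adjusted p = 9.25e-10) in DM3. The order of the lines therefore changed with the medium, with MUNC spliced above MUNC genomic in GM (0.88, limma adjusted p = 0.00198) and below it in DM3 (log2 difference -0.999, limma adjusted p = 0.000472). Neither pair overlapped. Mmp15 passed the filter through MUNC libraries alone, so its difference from control was built in and is a description. With no filter, limma gave adjusted p-values of 5.53e-06 and 2.64e-06 for MUNC spliced and 0.000587 and 4.65e-08 for MUNC genomic cells against control in GM and DM3. Mmp17, a membrane-type enzyme held by a lipid anchor, never averaged above 0.897 FPM. It fell on differentiation in control (-0.73 ± 0.14, limma adjusted p = 0.000248). Mmp17 passed the filter without any control DM3 library, so part of that fall was built in. With no filter, limma gave an adjusted p of 0.000439.

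Another 4 Mmps were called higher on differentiation in 2 or 3 lines. Mmp19, which cuts basement membrane proteins, rose in control from 2.01, 3.2 and 0.953 to 15.1, 12.5 and 18.8 FPM, in MUNC spliced cells from 2.22, 6.21 and 3.16 to 15.4, 21.9 and 35 FPM and in MUNC genomic cells from 2.81, 5.66 and 2.33 to 12.8, 14.4 and 17.1 FPM. All 3 steps were without overlap. The log2 change was 2.48 in control, 2.38 in MUNC spliced and 1.84 in MUNC genomic cells (limma adjusted p = 1.88e-05, 0.000114 and 0.000392). Mmp19 was called in no comparison between lines. Exons of Tmem198b, which averaged 26.8 to 37.2 FPM, cover 22.3% of its exon bases on the opposite strand. Mmp28, also called epilysin, rose in control from 6.47, 12.4 and 6.08 to 17, 21.3 and 27.1 FPM (1.33 ± 0.28, limma adjusted p = 0.000641). It rose as well in MUNC spliced cells, from 7.34, 9.64 and 6.33 to 13.7, 17.6 and 31.9 FPM (1.26 ± 0.28, limma adjusted p = 0.00232). MUNC genomic cells held 9.99, 11.7 and 9.14 FPM in GM and 10.4, 11.8 and 10.6 FPM in DM3, which overlapped. The difference of this response from control missed the threshold in the fit without replicate numbers (limma adjusted p = 0.0585). In DM3 MUNC genomic cells were called lower than control and lower than MUNC spliced cells, with no overlap in either pair. Mmp11, stromelysin 3, which is activated inside the cell by furin, rose in control from 35.3, 81.2 and 32.9 to 88.8, 107 and 119.5 FPM (1.18 ± 0.33, limma adjusted p = 0.0065). In MUNC spliced cells it went from 56, 86.2 and 57.7 to 96.7, 101 and 211 FPM, a call (0.95, limma adjusted p = 0.036) lost without MUNC spliced GM replicate 1 or 3 or MUNC spliced DM3 replicate 3 (0.59 to 0.87). MUNC genomic cells held 48.1, 87.1 and 46.9 FPM in GM and 75, 73 and 78.8 FPM in DM3. Mmp23 reached at most 1.86 FPM in any library and was called higher on differentiation in all 3 lines (0.88, 0.44 and 0.59 on the log2 scale), with the MUNC spliced call lost without MUNC spliced GM replicate 3 or MUNC spliced DM3 replicate 3 (0.38 to 0.40).

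Mmp13, interstitial collagenase 3 of the chromosome 9 cluster, is named here after its values were seen. Only MUNC genomic DM3 libraries held more than 0.5 FPM, at 0.851, 2.67 and 2.77 FPM, so it passed the filter through that group alone. The other 15 libraries held 0 to 0.276 FPM, the highest in control DM3 (0.154, 0.276 and 0.239 FPM). Its promoter, shown above, holds TGANTCA and TATAAA, as do those of Mmp3 and Mmp10, which had at most 55 and 5 reads in any library.

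The 3 aggrecanases that were tested rose in every line, from different levels. Adamts4, aggrecanase 1, was low in GM in all lines, at 6.52, 7.59 and 4.52 FPM in control, 9.74, 15.3 and 4.38 FPM in MUNC spliced and 9.05, 12.8 and 4.16 FPM in MUNC genomic cells. It reached 94.7, 137 and 150.3 FPM in control DM3 and 218, 159.7 and 209.5 FPM in MUNC genomic DM3, but 32.3, 37.3 and 23.8 FPM in MUNC spliced DM3. The changes were 4.15 ± 0.37 (limma adjusted p = 3.11e-07) in control, 4.45 ± 0.37 (limma adjusted p = 3.29e-07) in MUNC genomic and 1.69 ± 0.37 (limma adjusted p = 0.00222) in MUNC spliced cells. The smaller MUNC spliced response differed from that of control by -2.46 ± 0.52 (limma adjusted p = 0.00672). In DM3 MUNC spliced cells lay below control (log2 difference -1.99 ± 0.37, limma adjusted p = 0.000384), with no overlap.

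Adamts5, aggrecanase 2, was ordered by line in both media. MUNC spliced cells held 327, 282 and 159 FPM in GM and 554, 656 and 659 FPM in DM3, control held 94.1, 114 and 38.7 and 198, 253 and 236 FPM, and MUNC genomic cells held 16.8, 30.9 and 5.5 and 58, 72 and 76.3 FPM. The 3 lines did not overlap in either medium. MUNC spliced cells were above control by 1.70 ± 0.45 (limma adjusted p = 0.00794) in GM and 1.44 ± 0.45 (limma adjusted p = 0.0161) in DM3. MUNC genomic cells were below control (log2 difference -2.29 ± 0.45, limma adjusted p = 0.00117) in GM and -1.72 ± 0.45 (limma adjusted p = 0.00575) in DM3. All 3 lines rose, by 1.60 in control, 1.34 in MUNC spliced and 2.17 in MUNC genomic cells (limma adjusted p = 0.00614, 0.0293 and 0.000813), and neither line's response differed from that of control past the threshold. The MUNC spliced rise was lost without MUNC spliced GM replicate 3 or MUNC spliced DM3 replicate 2 or 3 (1.03 to 1.30).

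Adamts1, which cuts versican and aggrecan, is the neighbour of Adamts5 on chromosome 16 of GRCm38, at 85793827 to 85803113 beside 85856173 to 85901828, both on the minus strand. It rose from 275, 316 and 151 to 630.1, 708 and 665 FPM in control (1.49 ± 0.36, limma adjusted p = 0.00222). MUNC genomic libraries went from 86.4, 178 and 42 to 309.8, 432 and 481 FPM (2.20 ± 0.36, limma adjusted p = 0.000117) and MUNC spliced libraries from 214, 214 and 179 to 447, 472 and 366 FPM. GM and DM3 did not overlap in any line. The MUNC spliced call (1.07, limma adjusted p = 0.0305) was lost without MUNC spliced GM replicate 1 or 3 or MUNC spliced DM3 replicate 1 or 2 (0.99 to 1.12). In GM, MUNC genomic cells lay below control (log2 difference -1.44 ± 0.36, limma adjusted p = 0.00756), with groups that overlapped, and in a fit of the groups compared alone the call was lost. The line order of Adamts5, with MUNC spliced above control, was not seen in Adamts1.

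**Figure D4:**
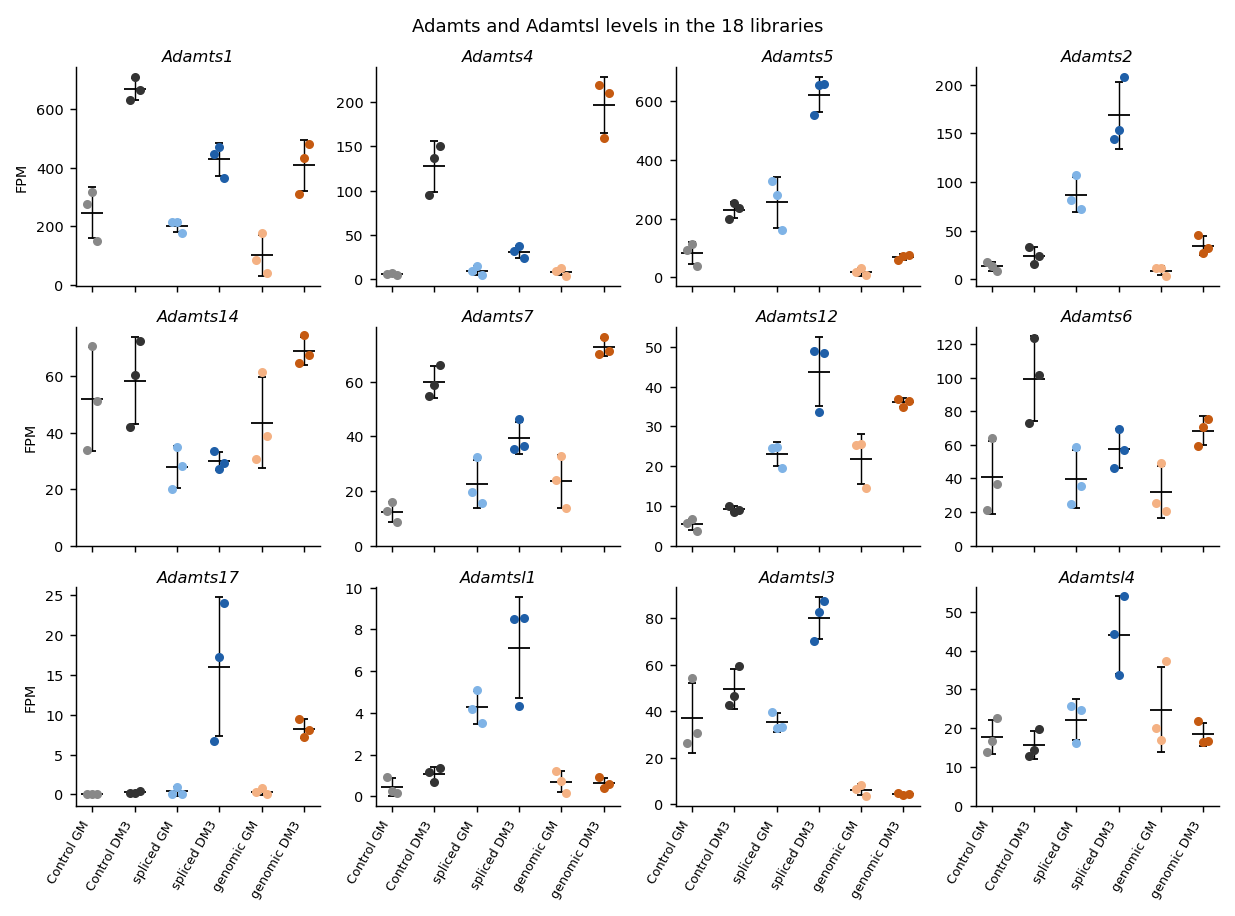
FPM of 9 Adamts and 3 Adamtsl genes in the 18 libraries, on linear axes that differ between panels. Points are libraries in replicate order, bars are the mean and SD of 3. Adamts2 and Adamts5 are highest in MUNC spliced cells in both media, Adamts17 is seen in the DM3 libraries of both MUNC lines, and Adamtsl3 is lowest in MUNC genomic cells.

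Of the procollagen N-proteinases, which remove the amino-terminal propeptide of fibrillar procollagens, Adamts2 was highest in the MUNC spliced line. It stood at 82, 107 and 71.9 FPM in GM and 144, 154 and 208 FPM in DM3 there, at 18, 13.4 and 8.4 and 32.9, 15.4 and 24.3 FPM in control, and at 11.7, 11.7 and 3.76 and 45.3, 27 and 31.8 FPM in MUNC genomic cells. All MUNC spliced libraries exceeded all libraries of the other lines. The differences from control were 2.66 ± 0.36 (limma adjusted p = 3.38e-05) in GM and 2.79 ± 0.36 (limma adjusted p = 1.24e-05) in DM3. It rose on differentiation in MUNC genomic cells (1.93 ± 0.36, limma adjusted p = 0.000323), while the call in MUNC spliced cells (0.95, limma adjusted p = 0.0496) was lost without MUNC spliced GM replicate 1 or 3 or MUNC spliced DM3 replicate 1, 2 or 3 (0.79 to 1.05) and under edgeR. Adamts14 was lower in MUNC spliced cells, at 33.5, 27.2 and 29.1 FPM in DM3 against 42, 60.5 and 72.5 FPM in control and 64.8, 74.5 and 67.6 FPM in MUNC genomic cells. The difference from MUNC genomic cells was -1.18 ± 0.27 (limma adjusted p = 0.00229). That from control (-0.91, limma adjusted p = 0.0132) was lost without control DM3 replicate 3 (-0.74). In GM Adamts14 held 34, 70.5 and 51 FPM in control, 20.1, 34.9 and 28.3 FPM in MUNC spliced and 30.5, 61.4 and 38.6 FPM in MUNC genomic cells. MUNC spliced cells were called lower than control there, with groups that overlapped. The rise of Adamts14 on differentiation in MUNC genomic cells was called, and was lost in at least 1 fit that left out a library. The third of these enzymes, Adamts3, had no read.

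Adamts12 and Adamts7, which both cut cartilage oligomeric matrix protein, were each called higher in both MUNC lines than in control in GM. In DM3 only Adamts12 was. The GM libraries of Adamts7 overlapped between control and each MUNC line. Adamts12 was higher in both MUNC lines in both media, at 24.7, 24.8 and 19.6 FPM in MUNC spliced and 25.4, 25.6 and 14.5 FPM in MUNC genomic GM against 5.68, 6.6 and 3.79 FPM in control. In DM3 the values were 49.1, 33.8 and 48.6, 37, 34.9 and 36.4 and 9.99, 8.5 and 8.97 FPM in the same order of lines, and control overlapped with neither. In GM the excess was 1.93 ± 0.21 (limma adjusted p = 3.36e-06) for MUNC spliced and 1.83 ± 0.21 (limma adjusted p = 5.7e-06) for MUNC genomic cells. In DM3 it was 2.13 ± 0.21 (limma adjusted p = 7.5e-07) and 1.87 ± 0.21 (limma adjusted p = 2.35e-06). Adamts7 rose on differentiation in control from 12.7, 15.8 and 8.68 to 54.7, 58.7 and 66.3 FPM (2.22 ± 0.28, limma adjusted p = 6.37e-06) and in MUNC genomic cells from 24, 32.9 and 13.7 to 70.2, 76.6 and 71.5 FPM (1.67 ± 0.28, limma adjusted p = 0.000122). MUNC spliced cells went from 19.7, 32.5 and 15.6 to 35.4, 46.3 and 36.6 FPM, a smaller step that differed from control by -1.39 ± 0.39 (limma adjusted p = 0.0285). That difference was lost without control GM replicate 3 or MUNC spliced GM replicate 2 or control DM3 replicate 2 or 3 or MUNC spliced DM3 replicate 1 (-1.40 to -1.10).

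Adamts17, for which mutations cause short stature and eye disease in people, passed 1 FPM only in the DM3 libraries of the MUNC lines. MUNC spliced DM3 libraries held 6.7, 17.2 and 24 FPM and MUNC genomic DM3 libraries 9.48, 7.16 and 8.04 FPM, against 0.23, 0.178 and 0.479 FPM in control DM3. In GM the 9 libraries held 0 to 0.990 FPM. The rise was 3.54 ± 0.33 (limma adjusted p = 1.63e-06) in MUNC spliced and 2.79 ± 0.33 (limma adjusted p = 6.59e-06) in MUNC genomic cells. The difference of these responses from that of control was 3.23 ± 0.47 (limma adjusted p = 0.000754) and 2.48 ± 0.47 (limma adjusted p = 0.00319). On recovered reads, where control GM held few, neither edgeR nor DESeq2 called either difference (edgeR 2.58 and 1.64, DESeq2 2.55 and 1.63), while both called the difference between lines in DM3. Adamts17 passed the filter through MUNC libraries alone, so its difference from control was built in and is a description. Of the 8 libraries at 0.5 FPM or more, most were in DM3, so part of the rise in each MUNC line was built in too. With no filter, limma gave adjusted p-values of 2.15e-05 in MUNC spliced and 5.67e-05 in MUNC genomic cells for the rise. For the differences of response they were 0.00274 and 0.0115. Adamts16 rose in MUNC genomic cells from 1.22, 2.04 and 0.189 to 5.28, 6.94 and 7.26 FPM (1.90 ± 0.37, limma adjusted p = 0.000525). In GM it was higher in MUNC spliced cells, at 3.18, 7.02 and 1.06 FPM, than in control, at 0.666, 0.478 and 0.277 FPM (1.49 ± 0.37, limma adjusted p = 0.00566). In DM3 control held 1.59, 2.17 and 1.9 FPM and MUNC spliced cells 3.11, 4.53 and 4.63 FPM. The control rise of Adamts16 was called as well, and was lost in at least 1 fit that left out a library. In DM3 MUNC genomic cells were called higher than control. Adamts6 rose in control from 21.2, 64 and 36.9 to 73.2, 124 and 101 FPM (1.37 ± 0.37, limma adjusted p = 0.00485) and was called in no comparison between lines. MUNC spliced cells went from 24.6, 58.6 and 35.6 to 46.5, 69.6 and 57.2 FPM and MUNC genomic cells from 25.6, 49.4 and 20.9 to 59.1, 70.8 and 75.7 FPM. The MUNC genomic rise of Adamts6 was called as well, and was lost in at least 1 fit that left out a library. Adamts10, a fibrillin-binding relative of Adamts6, averaged 17.0 to 31.9 FPM and was lower in MUNC genomic than in control DM3 (-0.87 ± 0.22, limma adjusted p = 0.00421).

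The Adamtsl genes encode matrix proteins without a protease domain, several of which bind fibrillin microfibrils, and 3 of the 4 tested differed between lines in at least 1 comparison. Adamtsl3 was low in MUNC genomic cells, at 6.66, 8.2 and 3.55 FPM in GM and 4.95, 3.95 and 4.27 FPM in DM3. Control held 26.2, 54 and 30.6 and 42.6, 46.5 and 59.3 FPM, and MUNC spliced cells 39.8, 32.7 and 33 and 70.2, 82.7 and 87.4 FPM. Every MUNC genomic library lay below every other library, and the differences from control were -2.40 ± 0.25 (limma adjusted p = 1.91e-06) in GM and -3.22 ± 0.25 (limma adjusted p = 2.97e-08) in DM3. It rose on differentiation in MUNC spliced cells (1.17 ± 0.25, limma adjusted p = 0.00211). Adamtsl1 was highest in MUNC spliced cells, at 4.19, 5.1 and 3.5 FPM in GM and 8.51, 4.36 and 8.53 FPM in DM3, where the other lines held at most 1.34 FPM. Its excess over control was 1.89 ± 0.26 (limma adjusted p = 4.24e-05) in GM and 1.95 ± 0.26 (limma adjusted p = 1.84e-05) in DM3. Adamtsl4, linked to the suspensory fibres of the lens, was higher in MUNC spliced DM3, at 44.3, 33.8 and 54.1 FPM, than in control DM3, at 12.8, 14.3 and 19.9 FPM (1.43 ± 0.27, limma adjusted p = 0.000505). MUNC genomic DM3 libraries held 21.9, 16.5 and 16.8 FPM. In GM the values were 13.9, 16.7 and 22.7 FPM in control, 25.7, 16.1 and 24.8 FPM in MUNC spliced and 19.9, 17.1 and 37.4 FPM in MUNC genomic cells. Adamtsl5 averaged 38.6 to 80.3 FPM and was called in no comparison.

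Across the members, the MUNC spliced line differed from control in GM in 12 of the 29 tested (10 higher, 2 lower), where 35.5% of all tested genes were called, 18.2% higher and 17.3% lower. The number in DM3 was 14 (11 higher, 3 lower), where 43.3% were called, 22.3% higher and 21% lower, and the count was also 14 without MUNC spliced DM3 replicate 1. The MUNC genomic line differed from control in 10 members in GM (5 higher, 5 lower) and in 15 in DM3 (8 higher, 7 lower), where 26.8% (12.2% higher, 14.5% lower) and 40.3% (19.3% higher, 20.9% lower) of all genes were called. In GM, 51.3% of all MUNC spliced calls and 45.6% of all MUNC genomic calls were higher, and after FPM were rescaled to equal sums these shares were 66.1% and 56.2%. The members then gave 11 higher against 2 lower in the former line and 5 against 5 in the latter. Adamts12 was higher in both lines in both media, as was Mmp15, which passed the filter through those lines alone. The 2 lines share their controls in these comparisons, so the direct contrast is given as well. Set against MUNC genomic cells, MUNC spliced cells had 13 members higher and 3 lower in GM, where 35.8% of all genes were called (higher 19.9%, lower 16%). For DM3 the counts were 11 and 7, where 44.2% were called (23.4% higher, 20.8% lower). The libraries of the groups compared did not overlap for 13 members in MUNC spliced and 8 in MUNC genomic against control in GM (43.6% and 37.9% of all genes), and for 21 and 21 in DM3 (53% and 56.9%). Between the MUNC lines they did not overlap for 14 members in GM and 21 in DM3, beside 45.7% and 57.2% of all genes. In GM all 3 tested Timps were higher in MUNC spliced cells, and in DM3 Timp1 and Timp3. Of these, Timp1 in GM (0.76, limma adjusted p = 0.0209) was lost without MUNC spliced GM replicate 3 or MUNC genomic GM replicate 1 or 2 (0.56 to 0.67), and Timp3 in GM (1.10, limma adjusted p = 0.0113) without MUNC spliced GM replicate 3 or MUNC genomic GM replicate 2 (0.81 to 0.87).

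**Figure D5:**
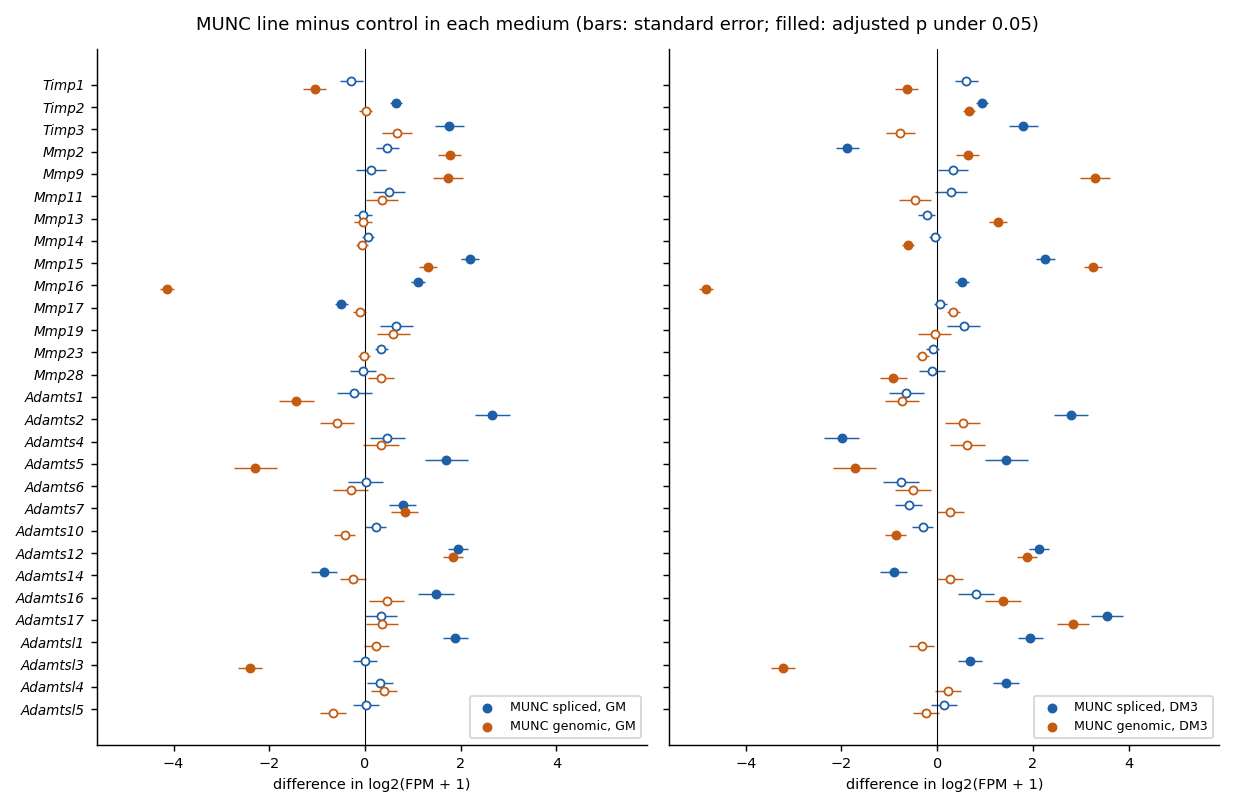
Difference in log2(FPM + 1) between each MUNC line and control for the 29 tested members, in GM on the left and DM3 on the right, with the standard error as bars. Filled points are called. Mmp16 in MUNC genomic cells lies farthest from 0 in both panels (-4.14 and -4.83), and Adamts5 lies above 0 in MUNC spliced and below 0 in MUNC genomic cells.

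In the fit without replicate numbers, the response to differentiation itself differed from that of control for 4 members in MUNC spliced cells, where 14.4% of all genes were called (7.43% higher, 6.94% lower), and for 5 in MUNC genomic cells, where 8.81% were called (3.56% higher, 5.25% lower). In MUNC spliced cells these were Adamts17, with a larger rise, and Adamts4, Adamts7 and Mmp2, with a smaller one. In MUNC genomic cells, the line with the most Krt8, Cdh5 and Des, they were Adamts17, Mmp13, Mmp15, Mmp9 and Timp2, all with a larger rise. There limma called 0 with a smaller response, beside 6 at an unadjusted p under 0.05, 1 by edgeR and 3 by DESeq2. With every library scaled to an equal sum, limma called 5 with a larger and 3 with a smaller response. The share of larger responses among all MUNC spliced calls was 51.7%, and it was 41.4% with equal sums and 62.1% by edgeR. Adamts17, Mmp15, Mmp9 and Mmp13 passed the filter without any control library, so their larger response was in part built in, and for such genes near 0 in control the log2(FPM + 1) scale sets the size. With no filter, limma called 3 members in MUNC spliced and 4 in MUNC genomic cells. Adamts7, Mmp9 and Timp2 were then not called (adjusted p = 0.0621, 0.0828 and 0.0705). The count for MUNC genomic cells was 3 without MUNC genomic GM replicate 1, MUNC genomic DM3 replicate 1 or 3, or control DM3 replicate 2 or 3, and that for MUNC spliced cells was 7 without MUNC spliced GM replicate 3. A fit with a replicate block called more members in both lines. Those gained in MUNC genomic cells were Mmp14, Mmp16, Mmp2, Mmp28 and Timp3, all with a response below that of control.

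Genes that act with these proteases were read from 5 lists. Their counts stand beside the shares of all tested genes called on differentiation, 29.6% higher and 28.6% lower in control, 17.2% and 18.4% in MUNC spliced and 26.3% and 25.1% in MUNC genomic cells. Of 12 serine proteases and convertases that activate proenzymes, with the urokinase receptor, 5 were tested, and on differentiation 2 rose and 1 fell in control and in MUNC genomic cells, and 1 rose and 1 fell in MUNC spliced cells. Plau, the urokinase that generates plasmin and is named here after its values were seen, rose in control, from 115 ± 12.9 FPM in growth medium to 334 ± 15.2 FPM (SD, n = 3). MUNC spliced cells held 216 ± 39.8 and 219 ± 49.0 FPM, and MUNC genomic cells 147 ± 66.7 and 463 ± 133 FPM. The MUNC spliced response of Plau fell short of that of control (-1.52 ± 0.36, limma adjusted p = 0.013). Plat, the tissue activator of plasminogen and likewise named after its values were seen, went the other way, with a response above that of control in MUNC spliced (1.73 ± 0.33, limma adjusted p = 0.004) and MUNC genomic cells (1.41 ± 0.33, limma adjusted p = 0.0128).

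A list of inhibitors outside the Timps, clearance genes and binding partners had 12 tested genes. Of these, 4 rose and 2 fell on differentiation in control, 5 rose and 2 fell in MUNC spliced cells, and 4 rose and 5 fell in MUNC genomic cells. Pcolce2, an enhancer of procollagen C-proteinase, fell in every line, with log2 changes of -4.37 in control, -2.08 in MUNC spliced and -3.42 in MUNC genomic cells (limma adjusted p = 1.22e-07, 0.00027 and 1.51e-06). Its fall was smaller in MUNC spliced cells than in control (difference of responses 2.29 ± 0.48, limma adjusted p = 0.00657). Thbs2, a matricellular protein that binds Mmp2 for its clearance, was lower in both MUNC lines than in control. The differences were -2.41 ± 0.20 in GM and -2.18 ± 0.20 in DM3 for MUNC spliced cells (limma adjusted p = 1.84e-07 and 4.11e-07), and -1.33 ± 0.20 and -1.90 ± 0.20 for MUNC genomic cells (limma adjusted p = 0.000134 and 1.39e-06). Of 19 tested inducers and transcription factors, 7, 9 and 9 rose and 4, 3 and 5 fell in control, MUNC spliced and MUNC genomic cells. Among the AP-1 genes, Fosl1 fell in control (-1.46 ± 0.42, limma adjusted p = 0.00743), MUNC spliced (-2.09 ± 0.42, limma adjusted p = 0.00133) and MUNC genomic cells (-2.20 ± 0.42, limma adjusted p = 0.000448). Fos rose in MUNC genomic cells (3.70 ± 1.03, limma adjusted p = 0.0069) and in MUNC spliced cells (3.62 ± 1.03, limma adjusted p = 0.0125). The latter call was lost without MUNC spliced GM replicate 3 (2.73). The control change of Fos was also upward but was not called (1.925 ± 1.03, limma adjusted p = 0.121). Neither MUNC response of Fos differed from that of control past the threshold. The differences were 1.70 ± 1.46 for MUNC spliced and 1.77 ± 1.46 for MUNC genomic cells (limma adjusted p = 0.459 and 0.52). A Fos rise particular to the MUNC lines was therefore not shown.

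All 10 membrane-anchored Adam genes were tested, and on differentiation 1, 0 and 3 rose and 2, 4 and 2 fell in control, MUNC spliced and MUNC genomic cells. Adam8 fell in control (-1.80 ± 0.17), MUNC spliced (-2.10 ± 0.17) and MUNC genomic cells (-2.14 ± 0.17). Adam12, meltrin alpha, known from myoblast fusion, fell in control (-2.69 ± 0.41) and MUNC genomic cells (-1.95 ± 0.41), and in MUNC spliced cells its response lay above that of control by 2.34 ± 0.57 (limma adjusted p = 0.0145). Adam19 rose in control (0.999 ± 0.28) and in MUNC genomic cells (3.08 ± 0.28), where the rise was larger by 2.08 ± 0.40 (limma adjusted p = 0.00322). Of 21 tested proteoglycan and microfibril genes, the substrates of many members, 9, 4 and 10 rose and 6, 2 and 4 fell in control, MUNC spliced and MUNC genomic cells. Dcn, the proteoglycan decorin, rose in all 3 lines (3.56, 3.74 and 4.98). Vcan, versican, a substrate of Adamts1, Adamts4 and Adamts5, rose in control, from a mean of 151 to 378.5 FPM (1.31 ± 0.24, limma adjusted p = 0.000187), and fell in both MUNC lines. It went from 245.0 to 159 FPM in MUNC spliced (-0.69 ± 0.24, limma adjusted p = 0.0309) and from 175 to 108 FPM in MUNC genomic cells (-0.72 ± 0.24, limma adjusted p = 0.0179). These falls were lost without MUNC spliced GM replicate 1 or 3 or MUNC spliced DM3 replicate 2 (-0.75 to -0.34) and without MUNC genomic GM replicate 1 or MUNC genomic DM3 replicate 1 (-0.66 to -0.56) respectively, and edgeR did not call the former (-0.60). The difference from the control response was -2.004 ± 0.33 for MUNC spliced (limma adjusted p = 0.00154) and -2.03 ± 0.33 for MUNC genomic cells (limma adjusted p = 0.000983), and it was called without any 1 library. Lum, the proteoglycan lumican, rose more in MUNC genomic cells than in control (2.02 ± 0.55, limma adjusted p = 0.029), a call lost in 7 of 12 fits that each left out 1 library (1.85 to 2.05 in those fits) and made by neither edgeR nor DESeq2. Further list genes differed between lines. In MUNC spliced cells, Fmod was above control (log2 difference 2.97 in GM and 4.01 in DM3, limma adjusted p = 0.000134 and 4.02e-06), with a wide spread (10.5 ± 9.17 and 17.8 ± 10.4 FPM). Etv4 was below control there (-2.40 and -2.65, limma adjusted p = 1.02e-06 and 2.23e-07). Adam22 was below control in MUNC genomic cells (-2.24 and -2.93, limma adjusted p = 1.23e-06 and 2.56e-08). The medians of the 5 lists on differentiation lay between -0.17 and 0.47, beside -0.01 to 0.02 for all genes.

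The authors' deposited table of control DM3 against GM lists 16 members higher and 2 lower at an adjusted p under 0.05, out of 31 with an adjusted p. The authors' deposited tables of MUNC spliced against control list 11 higher and 1 lower in GM and 16 higher and 6 lower in DM3. Those of MUNC genomic against control list 5 higher and 4 lower in GM and 11 and 11 in DM3, again from the authors' deposited table. Unless named as the authors', values elsewhere in the text come from the fit on FPM and not from those tables.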

How the data were processed

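RNA-seq of 18 C2C12 libraries was analysed from the table the authors deposited. Its values are a signal in FPM, gene reads scaled for library size by the authors. The submitters' processing notes name STAR, HTSeq, DESeq2 and mm10, with no versions, and whether reads were counted by strand is not given in the sources used here. In every library the deposited values were whole multiples of 1 step, and dividing by it gave whole reads for 100% of values, within a tolerance of 0.1 read (largest deviation 0.0354). FPM summed to 946834 to 1048477 per library. The authors' 5 deposited comparison tables hold log2 fold changes and p-values, used only where named. The deposited scores in those tables (mean count, test statistic) were not used.

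The main test was limma 3.58.1 (R 4.3.3) with log2(FPM + 1) as input, a mean-variance trend and 1 mean for each of the 6 groups, fitted to the 18 libraries together with 12 residual degrees of freedom. A gene was tested if 3 libraries or more reached 0.5 FPM, which left 13869 genes, and p-values were adjusted over all of them by Benjamini and Hochberg. There were 9 comparisons of 2 groups (DM3 with GM within a line, and pairs of lines within a medium) and 2 interactions, which test whether a MUNC line responded to differentiation differently from control. The log2(FPM + 1) scale understates the change of low genes. The labels call the libraries biological replicates and name no independent lines within a group, so p-values measure the spread between replicates of 1 line. Alternatives included edgeR 4.0.16 (TMM, quasi-likelihood) and DESeq2 1.42.0 on recovered reads, other pseudocounts and filters, equal sums, quantile normalization, a replicate block and leaving out each library. The fits were tested on simulated data.

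Levels between genes used exon lengths from GENCODE M21, found for 97.8% of genes. Named with their libraries' values, or with a range where reads were few, were the 4 Timps, Mmp2, Mmp9 and Mmp14, and each tested member called with an absolute log2 change of at least 1 in a 2-group comparison and a group mean of at least 5 FPM, 25 in all. Genes of the 5 lists were named mainly from those called with an absolute log2 change of at least 2 and a group mean of at least 5 FPM. Not every list gene past these limits is given. Members and lists were chosen with earlier results of these data known. No list test was run.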

Additional observations from a re-analysis of the deposited data

Results flagged for a closer look

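In 9 cases the response to differentiation differed between a MUNC line and control by a test of the difference itself, the interaction term in limma without a replicate block. On the log2(FPM + 1) scale the MUNC spliced response exceeded that of control by 3.23 for Adamts17 and fell short of it for Adamts4 (-2.46), Mmp2 (-2.34) and Adamts7 (-1.39). The MUNC genomic response exceeded that of control by 2.48 for Adamts17, 1.95 for Mmp15, 1.57 for Mmp9, 1.31 for Mmp13 and 0.65 for Timp2. Adamts17, Mmp15, Mmp9 and Mmp13 passed the filter without any control library, so part of their difference was built in. Adamts4 and Mmp2 were called in every alternative fit and without any 1 of the 12 libraries. Adamts7 was lost when 1 of 5 libraries was left out, named above with its values. Mmp9 was lost in 9 and Timp2 in 10 of the 12 fits that each left out 1 library (1.04 to 2.04 and 0.55 to 0.76 over the 12). Neither edgeR nor DESeq2 called Adamts17, Mmp15 or Mmp9 in these tests, and edgeR did not call Mmp13.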

How the results depend on the processing

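No called member change reversed in any alternative. Of 144 called changes of tested members, 84 kept the call in every alternative and 36 lost it in at least 1 fit that left out a library. A minimum absolute log2 change of 1 removed 47 calls, no filter on low values 22, fitting only the groups compared 14, edgeR 11, quantile normalization 6, DESeq2 5, a pseudocount of 0.1 4, and a pseudocount of 0.5 or equal sums 2 each. With the minimum log2 change, 10 members were called in control DM3 against GM, 7 in MUNC spliced DM3 against GM, 9 in MUNC genomic against control in DM3 and 10 in MUNC spliced against MUNC genomic in GM. For the MUNC genomic interaction, 3 were called with a pseudocount of 0.1, 8 with equal sums, 8 with only the groups compared and 2 by edgeR, against 5; the cause was not tested. With the replicate block 10 were called there and 8 in the MUNC spliced interaction, against 4; the block cost no member its call. The members gained were Adamtsl4, Mmp16, Mmp17 and Timp1 in MUNC spliced (adjusted p = 0.0109, 0.0443, 0.0488 and 0.0219) and Mmp14, Mmp16, Mmp2, Mmp28 and Timp3 in MUNC genomic cells (0.049, 0.0329, 0.0226, 0.0298 and 0.0162), the latter 5 all with a response below that of control. The labels name no batch or day that equal replicate numbers share. Deviations from the group means correlated over 0.1 in 36 of 45 same-numbered pairs (median 0.291, lowest -0.057, median of other pairs -0.124), and 17 of 18 libraries correlated best with their own number. Since not every pair passed 0.1, the reported fit has no block. Leaving out 1 library gave 15 to 18 called members for DM3 against GM in control, 9 to 14 in MUNC spliced (9 without MUNC spliced GM replicate 3) and 16 to 19 in MUNC genomic cells. Against control in GM the range was 10 to 12 for MUNC spliced and 9 to 11 for MUNC genomic, and in DM3 it was 13 to 14 for each. Between the MUNC lines it was 12 to 14 in GM and 16 to 18 in DM3. For the interactions it was 3 to 7 in both (MUNC spliced 7 without MUNC spliced GM replicate 3; MUNC genomic 3 without MUNC genomic GM replicate 1, control DM3 replicate 2 or 3, or MUNC genomic DM3 replicate 1 or 3). Libraries held 38416702 to 68788327 recovered reads, at which 3 reads came to 0.0429 to 0.0757 FPM.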

Other observations

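Replicate 3 in GM was the lowest of its group in all 3 lines for 12 of the 29 tested members, a pattern noticed after the values were seen. These were Adamts1, Adamts2, Adamts4, Adamts5, Adamts7, Adamts10, Adamts12, Adamts16, Adamts17, Adamtsl1, Mmp16 and Mmp28. The same held for 19.2% of all tested genes. Adamtsl5, Timp1 and Timp3 were instead highest in that replicate in all 3 lines, as were 19.1% of all tested genes. Replicate 2 in GM was the highest of its group in all 3 lines for 12 members, beside 15.5% of all tested genes. What the replicate numbers share was not tested.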
